A study of Homo sapiens with 9 samples.

Results

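The genes described here are 51 genes of the G1/S transition and of DNA replication: cyclins and kinases that start S phase, E2F transcription factors, proteins that license and fire replication origins, the replication fork, the supply of deoxynucleotides, and the chromatin factors that follow the fork. They were chosen by name from a list of G1/S cyclins, E2F targets and replication genes, by a rule that takes no measured value, though earlier results of these data were known, and were matched to the files' Ensembl identifiers. All 51 passed the filter on low counts, of 16072 genes that did so among 58096 listed. They were measured in ALL-SIL, an established line of T-cell acute lymphoblastic leukaemia (T-ALL). Its cells were electroporated with a non-targeting siRNA, called scrambled in the labels, or with the TLX1 siRNA s46 or s47. TLX1 is a homeobox transcription factor that acts as an oncogene in T-ALL. Each of the 3 groups had 3 libraries, numbered 1 to 3 in the labels, all taken at 24 h, and a dose of 400 nM is given for the scrambled siRNA and none for s46 and s47. The comparison asks how RNA levels differ when TLX1 is reduced by an siRNA for 24 h, in a single cell line.

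Before S phase, cyclin D with CDK4 or CDK6 and cyclin E with CDK2 phosphorylate the retinoblastoma protein, which releases E2F factors to transcribe genes for replication. Origins are licensed in G1, when ORC, CDC6 and CDT1 load the MCM2 to MCM7 helicase onto DNA. They fire in S phase, when CDC7 with DBF4 and the cyclin-dependent kinases turn the helicase into an active complex with CDC45 and the GINS proteins. Many of these transcripts are most abundant around the G1/S boundary, whereas transcripts of mitotic proteins peak later, in G2 and M. T-ALL cells divide fast, and the cyclin D and CDK6 genes are among those known for a role in this leukaemia.

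The libraries held 21134650 to 33393740 reads on the sense strand of genes. Counts were scaled by the trimmed mean of M-values (TMM) and are given as CPM, a gene's share of all gene counts on a fixed scale. TLX1, the targeted gene, was at 171.3 to 198 CPM in the scrambled libraries and at 63.5 to 87.3 CPM in the 6 TLX1 siRNA libraries. All 9 T-lineage markers were detected in every library, with summed levels of 1486 to 1772 CPM, against 10.95 to 15.28 CPM for 6 B-cell markers, of which 3 passed the filter on low counts, and at most 0.627 CPM for 6 myeloid markers and 0.359 CPM for 6 erythroid and megakaryocyte markers. No label tells whether a group's libraries stem from cultures treated separately; the p-values thus cover only the spread among these 9 libraries, which may be technical. The library scrambled 1 stood apart: 14.5% of its reads mapped to several places, against 6.36% to 7.34% elsewhere. Libraries that carried the same number also shared features across the groups. Results that rest on scrambled 1 or on the number 1 libraries are therefore given with and without them.

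Promoters were read first, because E2F factors act on many of these genes through a short DNA word. The table of RefSeq promoters on GRCh38.p14 used here gave a sequence, from 250 bases before to 50 bases after the transcription start, for 43 of the 51 genes. CCND2, CCNE2, CDK2, E2F8, MCM4, MCM5, GINS4 and POLD3 were not matched. The E2F word TTTNNCGC, searched on both strands, was present in 23 of the 43 promoters (53.5%), in 3 of 25 promoters of G2/M and mitosis genes (12%) and in 6.9% of all 27305 promoters. Its form TTTGGCGC was in 9 (20.9%) against 0.659% of all promoters, and its form TTTCCCGC was in 10 (23.3%) against 1.66%. The promoters of E2F1 and MCM6 held 4 copies each, some of which overlap. The following promoters are shown 5′ to 3′ because they belong to the genes with the most copies or to genes on which the results below turn; capitals mark every base inside a TTTNNCGC match on either strand.
E2F1, chr20:33686336-33686635, minus strand: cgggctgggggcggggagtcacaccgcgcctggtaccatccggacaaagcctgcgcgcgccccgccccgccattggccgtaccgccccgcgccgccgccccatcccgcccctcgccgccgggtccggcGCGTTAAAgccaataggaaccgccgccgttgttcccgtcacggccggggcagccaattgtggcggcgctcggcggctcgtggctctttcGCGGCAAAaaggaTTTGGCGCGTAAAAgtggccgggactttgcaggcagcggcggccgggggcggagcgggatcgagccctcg
MCM6, chr2:135876394-135876693, minus strand: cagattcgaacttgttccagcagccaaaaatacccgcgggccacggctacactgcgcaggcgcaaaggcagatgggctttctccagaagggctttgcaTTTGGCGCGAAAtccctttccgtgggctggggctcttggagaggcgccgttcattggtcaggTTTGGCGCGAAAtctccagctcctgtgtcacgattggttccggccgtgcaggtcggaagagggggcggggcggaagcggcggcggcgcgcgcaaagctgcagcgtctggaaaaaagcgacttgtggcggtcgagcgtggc
CDC6, chr17:40287629-40287928, plus strand: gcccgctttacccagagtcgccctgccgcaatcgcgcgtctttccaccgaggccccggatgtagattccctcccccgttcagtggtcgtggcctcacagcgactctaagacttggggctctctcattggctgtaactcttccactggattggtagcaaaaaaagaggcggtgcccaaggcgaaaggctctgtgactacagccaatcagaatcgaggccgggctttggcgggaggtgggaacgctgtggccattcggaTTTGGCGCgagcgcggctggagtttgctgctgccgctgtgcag
PCNA, chr20:5126573-5126872, minus strand: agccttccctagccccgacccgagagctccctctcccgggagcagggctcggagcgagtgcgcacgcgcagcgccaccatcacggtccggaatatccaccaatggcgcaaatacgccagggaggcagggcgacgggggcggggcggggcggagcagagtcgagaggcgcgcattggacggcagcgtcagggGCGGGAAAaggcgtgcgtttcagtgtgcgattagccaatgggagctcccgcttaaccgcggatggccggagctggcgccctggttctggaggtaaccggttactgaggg
TYMS, chr18:657403-657702, plus strand: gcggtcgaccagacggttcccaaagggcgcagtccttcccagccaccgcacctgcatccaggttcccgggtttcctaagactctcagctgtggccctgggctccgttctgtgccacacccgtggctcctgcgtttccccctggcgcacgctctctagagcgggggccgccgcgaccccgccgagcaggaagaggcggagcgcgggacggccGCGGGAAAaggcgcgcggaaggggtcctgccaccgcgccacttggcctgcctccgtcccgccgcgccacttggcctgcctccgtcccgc
UHRF1, chr19:4909251-4909550, plus strand: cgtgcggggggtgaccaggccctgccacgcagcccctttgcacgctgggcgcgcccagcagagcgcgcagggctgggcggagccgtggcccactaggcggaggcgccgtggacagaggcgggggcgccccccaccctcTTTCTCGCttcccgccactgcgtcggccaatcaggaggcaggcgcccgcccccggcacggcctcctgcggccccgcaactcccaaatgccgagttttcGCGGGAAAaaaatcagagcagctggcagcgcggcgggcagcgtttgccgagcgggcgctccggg
In E2F1 the sense match TTTGGCGC started 20 bases before the transcription start, and in MCM6 TTTGGCGC started 152 and 90 bases before it, each overlapped by an antisense match. In PCNA the single match, TTTCCCGC on the antisense strand, lay 59 bases before the start, and in TYMS an antisense TTTCCCGC lay 39 bases before it. In CDC6 the match TTTGGCGC lay just after the start, and in UHRF1 TTTCTCGC and TTTCCCGC lay on opposite strands. The CHR word TTTGAA, known from mitotic promoters, was in 2 of the 43 promoters (4.65%), against 19 of 25 G2/M promoters (76%) and 15.4% of all promoters. The CCAAT word, which can stand in either list, was in 21 (48.8%), against 84% of the G2/M promoters and 35.7% of all. A match describes the letters of a promoter and does not show that a factor binds there.

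The genes were abundant in ALL-SIL in every group. Per kilobase of exon, their median level over the 9 libraries was 34.2 CPM per kb, against 7.56 CPM per kb for 11164 protein-coding genes tested, and 49 of the 51 lay above that median. The highest level per length belonged to PCNA, the sliding clamp of the replication fork, at 414 CPM per kb. It was followed by the kinase CDK6 at 221 CPM per kb and the helicase subunits MCM3 (209 CPM per kb), MCM4 (172 CPM per kb) and MCM7 (150.4 CPM per kb). The next was SLBP, which binds the stem-loop of histone mRNAs, at 106 CPM per kb. Cyclin genes lay at the other end of the order: CCND2 was at 1.91 CPM per kb and CCNE1 at 3.21 CPM per kb, below GINS3 (8.70 CPM per kb) and E2F8 (10.5 CPM per kb). The mean of CCND2 takes in the number 1 libraries, where it was far lower, and its order against CCNE1 depends on them. Between cyclin genes, CCND3 at 51.8 CPM per kb and CCNE2 at 47.1 CPM per kb were far above CCND2 and CCNE1. The order of neighbours within the same range, such as MCM3 and CDK6 or MCM4 and MCM7, was not tested. Over the 9 libraries the highest value of a gene was 1.15 (MCM7) to 3.42 (TYMS) times its lowest in 50 genes, with a median of 1.53 over all 51; in CCND2 it was 66.2 times. The plot of levels by gene sets the number 1 libraries of CCND2 far below all other points.

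**Figure D1:**
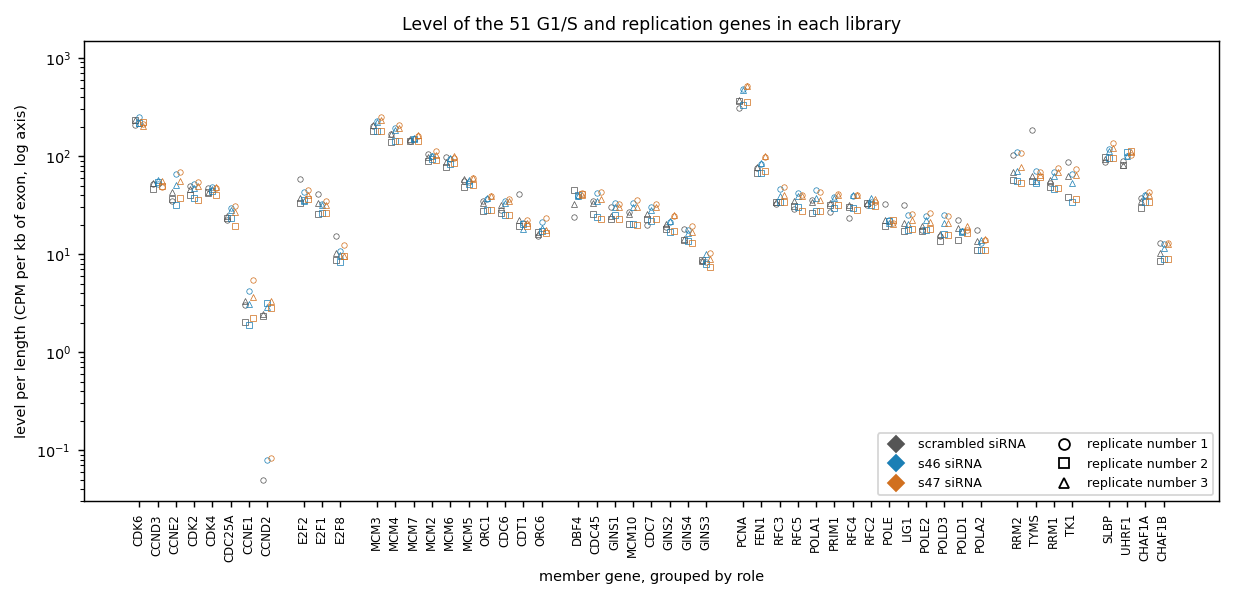
Level per length (CPM per kb of exon, log axis) of the 51 genes, grouped by role, in each of the 9 libraries; colour gives the siRNA and marker shape the replicate number. PCNA is highest at a mean of 414 CPM per kb, and the 3 number 1 libraries of CCND2 lie far below its other 6 libraries.

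With the TLX1 siRNAs, none of the 51 genes differed significantly from scrambled siRNA. Taking s46 and s47 together, 0 of 51 genes had an adjusted p under 0.05 (edgeR quasi-likelihood test, Benjamini-Hochberg adjustment over all genes), where 0.566% of all genes did. At an unadjusted p under 0.05, 5 members were higher and 1 was lower, against 7.26% and 10.5% of all genes. The median log2 fold change was 0.14 over the list and -0.03 over all genes tested; 40 members lay above 0 and 11 below, and 46.5% of all genes lay above 0. Scaled by library totals, which lowers all genes alike, the median was 0.06, with 31 above and 20 below, and the median over all genes was -0.09, with 6092 of 16072 above 0. The counts given below for library totals hold against that lower background. Single values ran from -0.69 (TYMS) to 0.45 (POLD3), with a median SE of 0.145. DESeq2 called 1 member, UHRF1 (log2 fold change 0.36, DESeq2 adjusted p 0.011), and 3.37% of all genes. In bulk RNA, fewer cells in a phase of the cycle and less RNA per cell cannot be told apart.

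The number of members above 0 and the calls depended on which libraries were used. Without scrambled 1, 48 members lay above 0 and 3 below, with a median of 0.17, and 0 were called, against 0.666% of all genes. That fit kept s46 1 and s47 1, so a difference of the number 1 libraries bore on the siRNA side only. Such a difference could not be told apart there from one that goes with the siRNAs. Without the 3 number 1 libraries the median was 0.08, with 43 above and 8 below, and again 0 were called, against 0.39% of all genes. Without scrambled 2, 2 members were called, against 10.1% of all genes: CDT1 (log2 fold change -0.64, edgeR adjusted p 0.0391) and DBF4 (0.51, edgeR adjusted p 0.0292). Those 2 genes are described with their libraries below. In scrambled 1 itself, 10 members were at their highest of all 9 libraries and 9 at their lowest, which is 19.6% and 17.6% of the list against 31.2% and 29% of all genes. The 10 were E2F1, E2F2, E2F8, CDT1, POLA2, POLD1, POLE, LIG1, TYMS and TK1, and the 9 were CCND2, ORC6, CDC7, DBF4, PCNA, RFC3, RFC4, PRIM1 and SLBP. What sets this library apart was not tested.

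**Figure D2:**
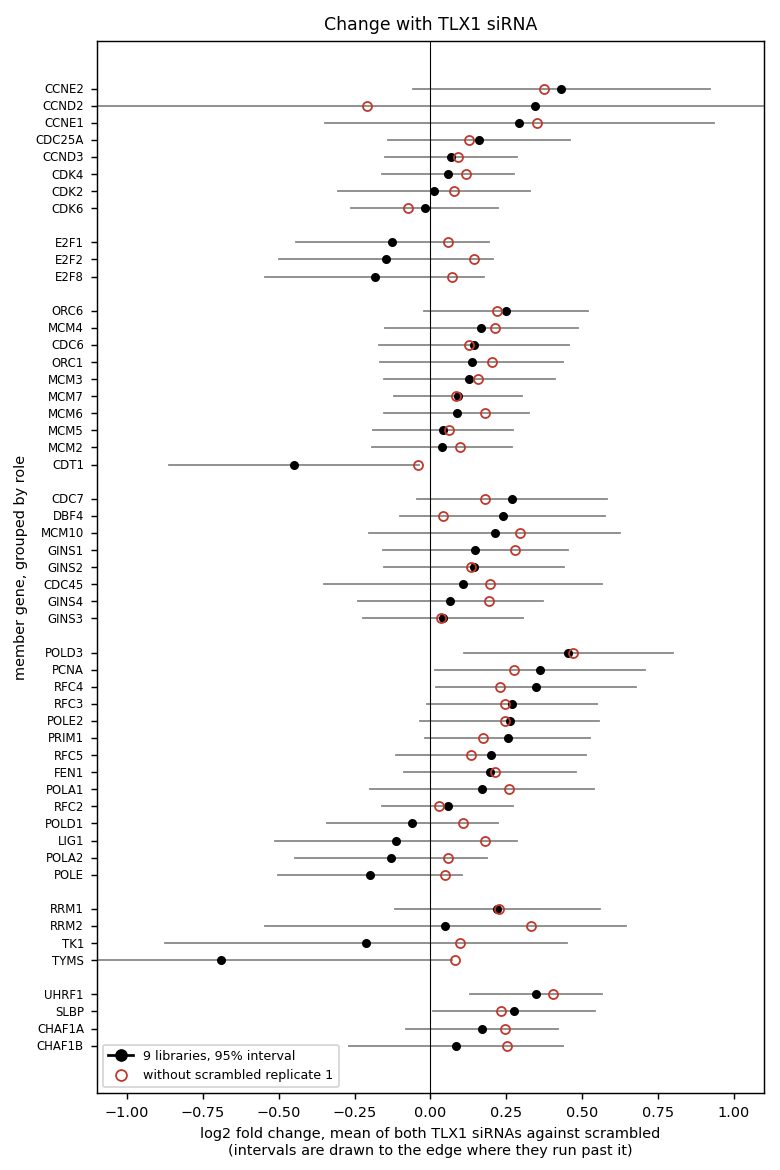
Log2 fold change of each of the 51 genes, mean of both TLX1 siRNAs against scrambled, grouped by role: filled points with 95% intervals for 9 libraries, open circles without scrambled 1. Of the filled points 40 lie above 0. Without scrambled 1 the E2F factors, POLE, POLA2, LIG1, POLD1, TYMS and TK1 cross to above 0, and CCND2 crosses to below 0.

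Among the 8 G1/S cyclins and kinases the median log2 fold change was 0.11, with 7 above 0, or 4 with library totals. CCNE2, a cyclin E that activates CDK2, was at 154, 160.2 and 190 CPM in scrambled libraries 1 to 3, at 287, 140.3 and 222 CPM with s46 and at 301, 164 and 247 CPM with s47. The number 2 libraries of both siRNAs lay within or below the scrambled range, and the other 4 above it. Its log2 fold change was 0.43 ± 0.22 (SE, edgeR adjusted p 0.325), and 0.14 without the number 1 libraries. The second cyclin E gene, CCNE1, was at 7.66, 5.19 and 8.41 CPM with scrambled siRNA, 10.6, 4.87 and 7.90 with s46 and 14.0, 5.70 and 9.31 with s47. The groups overlapped, and the log2 fold change was 0.29 ± 0.30 (SE), and 0.03 without the number 1 libraries. CDC25A, the phosphatase that frees CDK2 from inhibition, had a log2 fold change of 0.16 ± 0.14 (SE), and 0.015 without the number 1 libraries. CDK6, the cyclin D kinase with the highest level in this group, was at 2520 to 2854 CPM with scrambled siRNA, 2671 to 3045 CPM with s46 and 2466 to 2750 CPM with s47. Its log2 fold change was -0.02, with a 95% interval from -0.26 to 0.22, and that of CDK4 was 0.06, with an interval from -0.16 to 0.27. CCND2 belongs to the same group, but its 3 libraries within each group differed too widely for a fold change to be read without regard to the library number. The value was 0.35 ± 1.37 SE, and -0.21 without scrambled 1, a fit that kept s46 1 and s47 1. With the library number as a covariate it was 0.38 (edgeR unadjusted p 0.0128, adjusted p 0.158).

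With all 9 libraries the 3 E2F factors had values below 0, and without scrambled 1 all 3 lay above 0. E2F1, an activating E2F, was at 104, 63.6 and 84.0 CPM with scrambled siRNA, 81.7, 66.3 and 79.7 with s46 and 86.2, 66.3 and 79.8 with s47. E2F2, also an activator, was at 321, 180.0 and 206 CPM with scrambled siRNA and at 190.0 to 247 CPM in the siRNA libraries. E2F8, an atypical E2F that represses, was at 62.6, 36.4 and 42.9 CPM with scrambled siRNA and at 34.0 to 51.6 CPM with the TLX1 siRNAs. In all 3 genes scrambled 1 was the highest library and scrambled 3 was between the lowest and highest siRNA library. Scrambled 2 lay below all 6 siRNA libraries for E2F1 and E2F2 and within their range for E2F8. The log2 fold changes were -0.13 ± 0.15 (SE), -0.15 ± 0.16 and -0.18 ± 0.17 for E2F1, E2F2 and E2F8 with all libraries, and 0.06, 0.14 and 0.07 without scrambled 1. Without the number 1 libraries they were -0.01, 0.05 and -0.05 in the same order.

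Of the 10 origin licensing genes 9 had values above 0, or 7 with library totals, with a median of 0.11. The 6 subunits of the MCM2 to MCM7 helicase lay between 0.04 (MCM2) and 0.17 (MCM4), with a median of 0.09; with library totals 4 of the 6 were above 0. The interval of MCM7 ran from -0.12 to 0.30 and that of MCM4 from -0.15 to 0.49. MCM4 was at 1172, 978 and 1172 CPM with scrambled siRNA, 1358, 1000 and 1299 with s46 and 1454, 998 and 1354 with s47, so that the number 2 library was lowest in each group. MCM3, the most abundant helicase subunit per length, was at 656 to 756.5 CPM with scrambled siRNA and at 658 to 906 CPM with the siRNAs. ORC6, a subunit of the origin recognition complex, was at 66.4 to 71.6 CPM with scrambled siRNA and 70.6 to 100.1 CPM with the siRNAs; only s47 2 lay within the scrambled range. Its log2 fold change was 0.25 ± 0.125 (SE, edgeR adjusted p 0.310), and 0.09 without the number 1 libraries.

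CDT1, which loads the helicase with CDC6 and is destroyed once S phase begins, was the 1 licensing gene below 0. It was at 137, 64.5 and 74.5 CPM with scrambled siRNA, 69.1, 67.5 and 60.4 with s46 and 73.6, 64.3 and 70.0 with s47. Scrambled 1 was far above the other 8 libraries, scrambled 2 was among the siRNA libraries and scrambled 3 just above them. The log2 fold change was -0.45 ± 0.19 (SE; edgeR adjusted p 0.257) with all libraries and -0.04 without scrambled 1.

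All 8 origin firing genes had values above 0, with a median of 0.15, and 6 of 8 did with library totals. CDC7, the kinase that fires origins, was at 70.8, 81.7 and 91.7 CPM with scrambled siRNA, 108, 76.6 and 100.2 with s46 and 115, 81.2 and 108 with s47; 4 of the 6 siRNA libraries lay above every scrambled library. The log2 fold change of CDC7 was 0.27 ± 0.15 (SE, edgeR adjusted p 0.338), and 0.08 without the number 1 libraries. DBF4, the subunit that activates CDC7, differed more between the scrambled libraries, at 109.7, 208 and 148 CPM, than between the 6 siRNA libraries, at 177 to 191 CPM. For DBF4 the log2 fold change was 0.24 ± 0.16 (SE; edgeR adjusted p 0.426) and 0.04 without scrambled 1. MCM10, which helps start replication at licensed origins, was at 148, 112 and 139.8 CPM with scrambled siRNA, 182, 110.4 and 166 with s46 and 193, 109 and 165 with s47 (log2 fold change 0.21 ± 0.19 SE). The 4 GINS genes had a median of 0.10, from 0.04 (GINS3) to 0.15 (GINS1), and 2 of the 4 were above 0 with library totals.

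The 14 genes of the replication fork had a median of 0.20, with 10 above 0, or 9 with library totals. POLD3 (chromosome 11, 74493851 to 74669117, plus strand), a subunit of DNA polymerase delta, had the highest log2 fold change of the list, 0.45 ± 0.16 (SE; edgeR unadjusted p 0.0138, adjusted p 0.213). It was at 83.9, 74.2 and 88.5 CPM with scrambled siRNA, 138, 88.2 and 115 with s46 and 135, 86.7 and 113 with s47. The number 1 and 3 siRNA libraries lay above all scrambled libraries, and the number 2 ones did not. The value was 0.47 without scrambled 1 and 0.31 without the number 1 libraries.

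PCNA was at 449.9, 536 and 551 CPM with scrambled siRNA, 706, 488.5 and 700.1 with s46 and 767, 519 and 768 with s47. Here, too, the number 2 libraries of both siRNAs lay inside the scrambled range and the other 4 above it. PCNA had a log2 fold change of 0.36 ± 0.16 (SE, edgeR unadjusted p 0.0429, adjusted p 0.270). This was 0.28 without scrambled 1 and 0.19 without the number 1 libraries. RFC4 is a subunit of the complex that loads PCNA. It was at 70.3, 91.2 and 94.6 CPM with scrambled siRNA, 118, 88.1 and 120.5 with s46 and 121, 84.8 and 120.2 with s47. The log2 fold change of RFC4 was 0.35 ± 0.15 (SE, edgeR adjusted p 0.263), and 0.16 without the number 1 libraries. RFC2 to RFC5 were all above 0, with a median of 0.23, and 3 of the 4 were with library totals.

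The 4 fork genes below 0 were chosen for mention after their values were seen. They were POLE, the catalytic subunit of DNA polymerase epsilon (-0.20 ± 0.14 SE), POLA2, of the primase complex (-0.13 ± 0.15), LIG1, the ligase that seals nicks between DNA fragments (-0.11 ± 0.18), and POLD1, of DNA polymerase delta (-0.06 ± 0.13). POLE was at 533 CPM in scrambled 1 and at 321 to 367.5 CPM in the other 8 libraries. All 4 were highest in scrambled 1 and lay above 0 without it, at 0.05, 0.06, 0.18 and 0.11 in the same order.

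TYMS (chromosome 18, 657604 to 673578, plus strand), the thymidylate synthase and target of fluorouracil, was at 453, 136 and 155 CPM with scrambled siRNA, 175.5, 133 and 138 with s46 and 171.5, 149 and 157 with s47. Scrambled 1 alone was high, and the other 8 libraries spanned 133 to 175.5 CPM. The log2 fold change was -0.69 ± 0.34 (SE, edgeR adjusted p 0.313), 0.08 without scrambled 1 and -0.02 without the number 1 libraries. TK1 is the thymidine kinase of the salvage pathway. It was at 162, 71.5 and 117 CPM with scrambled siRNA, 121, 62.9 and 99.4 with s46 and 136, 67.6 and 119 with s47. Its value went from -0.21 ± 0.30 (SE) to 0.10 without scrambled 1, and was -0.11 without the number 1 libraries. RRM1 and RRM2 are the subunits of ribonucleotide reductase, which makes deoxynucleotides. Of the 4 nucleotide supply genes 2 lay above 0, or 1 with library totals. RRM1 had a log2 fold change of 0.22 ± 0.16 (SE) and RRM2 of 0.05 ± 0.27, with RRM2 at 549, 305 and 362 CPM with scrambled siRNA, 581.5, 295 and 372 with s46 and 570.3, 283 and 415 with s47.

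The 4 chromatin and histone mRNA genes were all above 0 under each scaling, with a median of 0.22. UHRF1 (chromosome 19, 4903080 to 4962154, plus strand), which brings DNA methylation to newly made DNA, had the lowest p of the 51. It was at 462, 412 and 414 CPM with scrambled siRNA, 520.1, 569 and 519 with s46 and 523, 575 and 571 with s47. It was the 1 member whose 6 siRNA libraries all lay above all 3 scrambled libraries, a pattern of 4.47% of all genes, and no member had the opposite pattern, against 3.65%. Its mean was 429 CPM ± 28.2 (SD, n = 3) with scrambled siRNA, 536 ± 28.7 with s46 and 556.5 ± 28.8 with s47. The log2 fold change was 0.35 ± 0.10 (SE; edgeR unadjusted p 0.00427, adjusted p 0.159), 0.40 without scrambled 1 (edgeR adjusted p 0.0796) and 0.44 without the number 1 libraries (edgeR adjusted p 0.118). SLBP was at 178, 199 and 190.2 CPM with scrambled siRNA, 240.0, 194.5 and 230.5 with s46 and 272.0, 192 and 244.5 with s47. The log2 fold change of SLBP was 0.27 ± 0.12 (SE, edgeR adjusted p 0.274), and 0.15 without the number 1 libraries. CHAF1A and CHAF1B, which place histones behind the fork, had log2 fold changes of 0.17 ± 0.12 (SE) and 0.08 ± 0.16.

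**Figure D3:**
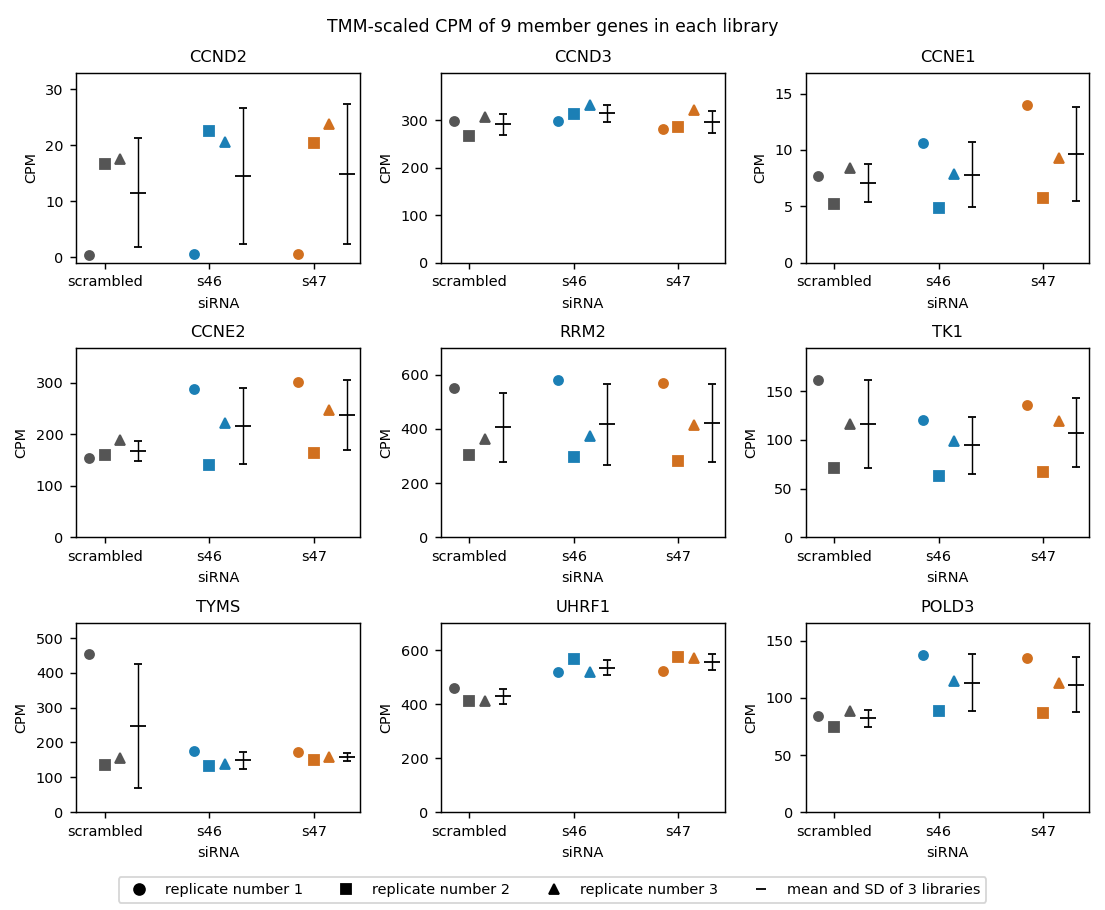
TMM-scaled CPM of 9 genes in each library, by siRNA; marker shape gives the replicate number, and the bar beside each group its mean and SD over 3 libraries. UHRF1 shows 6 siRNA libraries at 519 CPM or more above scrambled libraries at 462 CPM or less, TYMS a single high scrambled library at 453 CPM, and CCND2 number 1 libraries near 0 in every group.

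Each siRNA was also compared with scrambled siRNA on its own. With s46 against scrambled 0 members were called, where 0.174% of all genes were; 2 were higher and 1 lower at an unadjusted p under 0.05, against 5.15% and 6.7% of all genes, and DESeq2 also called 0, against 1.41%. With s47 against scrambled 0 members were called by edgeR, where 0.33% of all genes were; 4 were higher and 0 lower at an unadjusted p under 0.05, against 5.23% and 7.08%. DESeq2 called 1 for s47, against 1.37% of all genes. Both contrasts use the same scrambled libraries. The medians were 0.10 with s46 and 0.13 with s47, and UHRF1 was at 0.32 and 0.37, POLD3 at 0.47 and 0.44, PCNA at 0.30 and 0.42 and CDT1 at -0.49 and -0.41 in that order.

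The siRNAs were also set against each other directly, which leaves the scrambled libraries out of the difference. For s46 against s47, 0 of 51 members were called (edgeR, 0% of all genes), 0 had an unadjusted p under 0.05, where 0.703% of all genes did, and DESeq2 called 0. The lowest unadjusted p belonged to FEN1, the nuclease that trims Okazaki fragments, with a log2 difference of -0.18 and a 95% interval from -0.51 to 0.14. It was followed by CCNE1 (-0.31, interval -1.04 to 0.41) and GINS2 (-0.14, interval -0.48 to 0.20). Over the list, the differences ran from -0.31 to 0.10, with a median of -0.05; 40 members lay below 0 and 11 above, where 50.3% of all genes lay above 0. With 3 libraries per group, differences anywhere within these intervals remain compatible with the data.

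For many of the genes the values followed the library number in the same way in every group. Number 2 was the lowest of the 3 numbers in every group for 29 of the 51 genes (56.9%), where 6.74% of all genes show that order. For number 1, 17 members (33.3%) were highest in every group, against 8.78% of all genes, and number 3 was highest in every group for 5 (CCND3, MCM5, MCM7, GINS2 and FEN1), against 7.5%. Number 2 was highest in every group for 0 members, against 8.17% of all genes. With library totals the same counts were 33, 16, 8 and 1. The 17 highest in number 1 included all 3 E2F factors, the nucleotide genes RRM2, TYMS and TK1, and CDC45, MCM10, LIG1 and POLA1. LIG1, for example, was at 208, 114 and 136 CPM in scrambled libraries 1 to 3, at 166, 116 and 132.5 with s46 and at 167, 119 and 146 with s47. CDC45, of the active helicase, was at 99.5, 72.9 and 94.7 CPM with scrambled siRNA, 67.3 to 119 with s46 and 64.1 to 121 with s47, number 2 being the lowest and number 1 the highest each time.

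**Figure D4:**
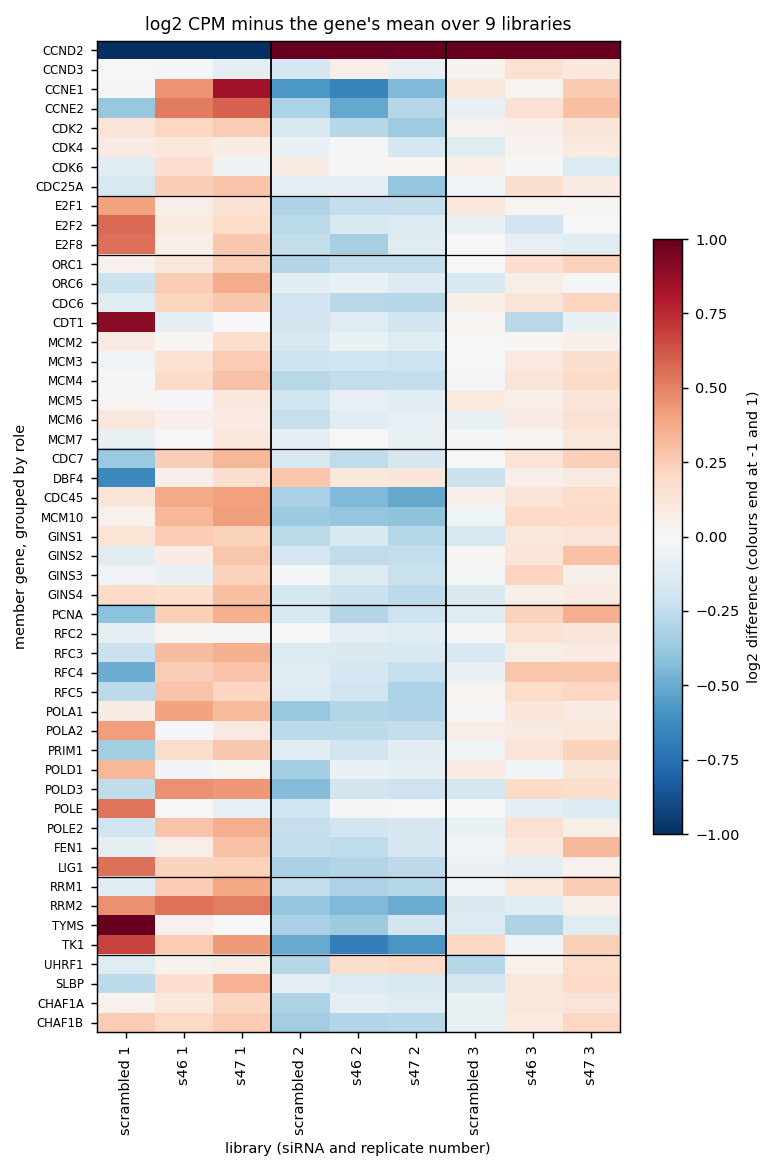
Log2 CPM of each gene minus its mean over the 9 libraries (colour, ending at -1 and 1), with genes grouped by role and libraries ordered by replicate number. The number 2 libraries are low for most genes, the number 1 libraries of s46 and s47 high, and CCND2 is low in all 3 number 1 libraries.

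Genes of G2/M and mitosis stood the other way round. Of 32 such genes, 22 (68.8%) were highest in number 2 in every group and 14 (43.8%) lowest in number 1, where 10.5% of all genes were lowest in number 1 (22 and 16 with library totals); for neither list did the opposite order occur in more than 1 gene. As a median over the genes of log2 CPM minus the mean of 9 libraries, the 51 genes stood at -0.21, -0.19 and -0.21 in scrambled 2, s46 2 and s47 2, where the G2/M genes stood at 0.40, 0.22 and 0.20. In number 1 the values were -0.02, 0.17 and 0.26 for the 51 genes and -0.35, -0.21 and -0.14 for the G2/M genes. The number 3 libraries lay between, at -0.02, 0.10 and 0.12 for the 51 genes and at -0.07, -0.09 and -0.02 for the G2/M genes. Scrambled 1 thus joined the other number 1 libraries for the G2/M genes, where it was the lowest of all, but not for the median of the replication genes. The labels do not say what a number stands for, and whether it marks a culture, a day or a library preparation was not tested.

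**Figure D5:**
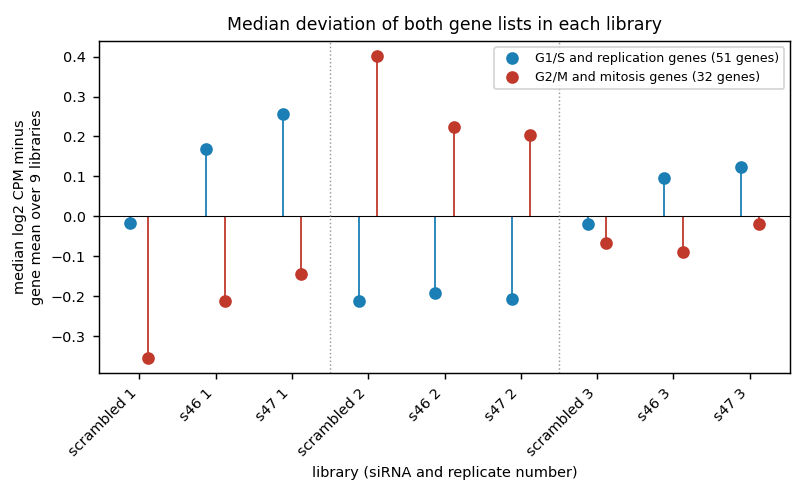
Median over the 51 G1/S and replication genes and over 32 G2/M and mitosis genes of log2 CPM minus the gene's mean over 9 libraries, per library; dotted lines part the replicate numbers. The lists stand on opposite sides of 0 in every number 2 library, at about -0.2 and at 0.20 to 0.40.

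CCND2, the gene of cyclin D2 (chromosome 12, 4273772 to 4305350, plus strand, GRCh38), was the 1 member lowest in number 1 in every group, against 10.5% of all genes. It had 8, 15 and 16 sense reads in the number 1 libraries of scrambled, s46 and s47. In numbers 2 and 3 it had 493 and 479 reads with scrambled siRNA, 647 and 681 with s46 and 638 and 713 with s47. The gap was present in every group and at nearly the same size. In CPM the number 1 libraries were at 0.359, 0.572 and 0.599, and the mean of numbers 2 and 3 was 47.7-fold higher with scrambled siRNA, 37.6-fold with s46 and 36.7-fold with s47. Counting without regard to strand gave 8, 15 and 14 reads in number 1 and 464 to 677 in the others. Within numbers 2 and 3 the scrambled libraries were at 16.6 and 17.6 CPM and the 4 siRNA libraries above them at 20.3 to 23.7 CPM; the log2 fold change without the number 1 libraries was 0.35 (edgeR unadjusted p 0.0227, adjusted p 0.556). The other D-type cyclin of the list, CCND3, showed no such gap, at 299, 267 and 307 CPM in scrambled libraries 1 to 3, 298, 313 and 332 with s46 and 281, 285 and 322 with s47. What goes with the number 1 libraries at this gene was not tested.

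The wider pathway was read from lists of related genes that are not members. Of 24 other G1/S regulators 1 rose and 0 fell, where 0.566% of all genes passed the threshold in either direction, with a median log2 fold change of 0.08 against -0.03 for all genes. This was TFDP2, a partner through which E2F factors bind DNA, at 526, 575 and 537 CPM with scrambled siRNA, 702, 788 and 802 with s46 and 736, 841 and 874 with s47. Its log2 fold change was 0.53 ± 0.11 (SE; edgeR adjusted p 0.0482), and all 6 siRNA libraries lay above all scrambled ones. Of 15 genes of replication-coupled chromatin 1 rose and 0 fell, against the same 0.566%, with a median of 0.08: SUPT16H, of the histone chaperone FACT, at 351 to 412 CPM with scrambled siRNA, 538 to 617 CPM with s46 and 526 to 625 CPM with s47 (0.58 ± 0.11 SE, edgeR adjusted p 0.0317). SUPT16H has an annotated pseudogene that was also counted, so its reads may be split. Each of the 2 calls was kept under 9 of 18 alternatives and lost under 9. The edgeR adjusted p was then up to 0.159 for TFDP2 and 0.133 for SUPT16H. Both were lost with unstranded counts, without scrambled 3 and without any of the 6 siRNA libraries. TFDP2 was also lost with library totals, and SUPT16H without the number 1 libraries.

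No gene of the other lists passed the threshold (edgeR). Among 36 other replication factors 0 were called and the median was 0.15, with 3 higher and 2 lower at an unadjusted p under 0.05, against 7.26% and 10.5% of all genes. POLE3, a histone-fold subunit of DNA polymerase epsilon, had 0.40 ± 0.14 (SE) and CHTF18, of an alternative clamp loader, -0.39 ± 0.16. CHTF18 was at 59.8 CPM ± 20.7 (SD, n = 3) with scrambled siRNA, 45.2 ± 3.65 with s46 and 45.7 ± 2.14 with s47. Without scrambled 1, 1 of the 36 was higher and 0 lower at an unadjusted p under 0.05 (edgeR), against 776 and 635 of 16365 genes. Among 16 other nucleotide genes the median was 0.16. The lowest p belonged to the mitochondrial thymidine kinase TK2 (0.61 ± 0.15 SE, edgeR adjusted p 0.097) and to SHMT1, of folate metabolism (-0.42 ± 0.13, edgeR adjusted p 0.186). The SHMT1 mean was 91.7 CPM with scrambled siRNA, 52.6 CPM with s46 and 89.2 CPM with s47, so that s47 stayed close to scrambled siRNA. Among 21 replication checkpoint genes the median was 0.08, with USP1, which removes ubiquitin from PCNA, at 0.49 ± 0.14 (SE) and the checkpoint kinase ATR at 0.26 ± 0.11. The 32 G2/M and mitosis genes had a median of -0.04. The mitotic motor KIF11 was at 0.36 ± 0.11 (SE, edgeR adjusted p 0.180) and the proliferation marker MKI67 at -0.55 ± 0.17 (edgeR adjusted p 0.189). MKI67 was at 1224 CPM ± 377.6 (SD, n = 3) with scrambled siRNA, 799 ± 94.4 with s46 and 877 ± 171 with s47. The median of the 32 genes was -0.21 without scrambled 1 and -0.12 without the number 1 libraries, where the 51 genes were at 0.17 and 0.08. At an unadjusted p under 0.05 (edgeR), 1 of the 32 was higher and 0 lower without scrambled 1, against 776 and 635 of 16365 genes. Without the number 1 libraries 0 were higher and 0 lower, against 566 and 507 of 16157 genes. Of the 30 regulators listed first, 6 were under the filter on low counts, among them CCND1, with 0 reads in every library, and the inhibitor genes CDKN2A and CDKN2B, with at most 10 reads and 1 read.

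Fold changes were also set beside the promoter words, as a description with no test. The 23 genes with TTTNNCGC had a median log2 fold change of 0.13, with 16 above 0, and the 20 genes with a promoter entry but without the word had 0.15, with 17 above 0. Number 1 was highest in every group for 8 of the 23 and 5 of the 20. Their levels overlapped, with medians of 31.6 and 35.6 CPM per kb. The 21 genes with CCAAT had a median log2 fold change of 0.15, with 19 above 0, and the 22 without it had 0.06, with 14 above 0. The counts above 0 for both words depended on scrambled 1. Without that library E2F2, LIG1, POLA2, POLD1, TK1 and TYMS, which lack CCAAT, moved above 0, at 0.14, 0.18, 0.06, 0.11, 0.10 and 0.08. E2F1 and POLE, which hold it, did so too, at 0.06 and 0.05. CDK6 and CDT1, without CCAAT, stayed below 0, at -0.07 and -0.04.

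A set of 7-base words in 3′ UTRs that earlier work on these libraries had picked for their association with fold changes were also counted, with GENCODE 29 on GRCh38. Because these words were chosen on the same data, their counts are a description only. GCAGTAC stood in the 3′ UTR of 2 of the 51 genes (3.92%), POLD3 and CDK6, against 4.46% of 11064 genes tested. The sites are shown because POLD3 has the highest fold change of the list and 2 copies; capitals mark the word.
POLD3, chr11:74641224-74641230, plus strand: cttgtcttcctGCAGTACcacacttctgt
POLD3, chr11:74641340-74641346, plus strand: tcctccattatGCAGTACacggacacctg
CDK6, chr7:92607182-92607188, minus strand: agtgggaacagGCAGTACtgttgagagga
POLD3 had a log2 fold change of 0.45, rank 1 of the 51, and CDK6 of -0.02, rank 41. CAGTACA, which overlaps it, was in 4 members (CCND2, CDK6, DBF4 and POLD3; 7.84% against 7.76%), and AATCACT in 4 (CDC25A, E2F2, GINS3 and RRM2; 7.84% against 13.6%). Whether these shares differ was not tested.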

How the data were processed

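Total RNA depleted of ribosomal RNA was sequenced as stranded libraries, per the labels' protocols. The authors deposited a raw count per gene for each of the 9 libraries; the columns hold unstranded, sense and opposite-strand read counts, of which the sense counts were used. Reads were placed on GRCh38, per the submitters' processing notes; aligner, counter and annotation: not given in the sources used here. Per library, 4 lines naming no gene stayed out of library sizes and tests. They held 41.8% to 60.9% of the unstranded column. Of 58096 identifiers 57492 matched GENCODE 29, 53747 of them with the same version.

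Genes with enough counts by edgeR's filterByExpr (minimum count 10) were kept, 16072 in all. After TMM scaling, edgeR 4.0.16 was applied (quasi-likelihood test, 3 groups in 1 fit, no covariate) in R 4.3.3, with Benjamini-Hochberg adjustment over all genes and a threshold of 0.05. The contrasts were the mean of s46 and s47 against scrambled, s46 or s47 alone against scrambled, and the difference between s46 and s47. Heat-map log2 values used a prior count of 2. Intervals are 95%. Sequences and figures were made with Python 3.11.15, numpy 2.4.6, pandas 2.3.3 and matplotlib 3.10.9. Alternatives used DESeq2 1.42.0, limma 3.58.1 (voom), other scalings, filters, strands and sets of libraries. The fit was tested on simulated data.

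The genes and lists were chosen with earlier results of these data known. Genes named in the text are, per role group, the 3 with the lowest p for the mean of both siRNAs and the highest and lowest per length, the 3 with the lowest p between the siRNAs and between library numbers, and, per pathway list, the called genes or else the 2 with the lowest p; others are named to complete a count or a pattern. Reads mapping to several places are not in the gene counts, so genes with near-identical pseudogenes may be undercounted. The submitters' numbers were not treated as pairs in the main fit.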

Additional observations from a re-analysis of the deposited data

How the results depend on the processing

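The median SE of the members was 0.145 on the log2 scale, so small changes could be missed. For the mean of both siRNAs against scrambled, 0 members were called. The count was 3 without a filter on low counts, 1 with DESeq2, against 3.37% of all genes, and 0 to 2 when 1 library was left out. The 2 came without scrambled 2, where 10.1% of all genes were called. Shares over all genes without the filter are not given here, so counts without it do not single out the members. For s47 against scrambled 1 member was called without the filter and 1 with DESeq2, the latter against 1.37% of all genes. For s46 against scrambled and for s46 against s47 every alternative gave 0. Fitting only the groups compared is the same fit for the mean contrast and was not run there. Under each alternative run the median of the members was above 0, from 0.06 with library totals to 0.22 without s47 2.

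The numbers 1 to 3 were checked as a pairing: same-number libraries of different groups correlated at -0.030 to 0.436, 8 of 9 pairs over 0.1, and other pairs at -0.314 to 0.170, so not every pair met the minimum, though 9 of 9 libraries correlated best with a library of their own number. With the replicate block 0 members were called in each of the 4 contrasts, the member median was 0.12, and 222 genes in all were called for the mean contrast against 91 without it, 74 against 28 for s46 and 125 against 53 for s47. Number 1 against numbers 2 and 3 called 6 members, of which RRM2, TK1, LIG1, CDC45 and POLA1 were higher and CCND2 lower (-5.29 ± 0.17 SE, edgeR adjusted p 9.495e-07), against 0.958% and 1.1% of all genes. That count was 13 without the filter and 1 to 26 when 1 library was left out. The shares over all genes in those settings are not given here.

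Of 594 values for the named members, 559 kept their direction and their side of the threshold, 6 newly passed it and 29 changed sign; the cause was not tested. Without the filter CDK6 was at 0.0052, and with unstranded counts at 0.023; with library totals GINS3 was at -0.027 and RRM2 at -0.030. Without the number 1 libraries the values were 0.050 for E2F2, -0.0020 for GINS3, 0.023 for POLA2 and 0.041 for LIG1. The other changes of sign came from leaving out 1 library. The lowest value was that without scrambled 2 and the highest that without scrambled 1 for E2F8 (-0.34 to 0.070), E2F2 (-0.30 to 0.14), E2F1 (-0.28 to 0.057), POLA2 (-0.28 to 0.058), TYMS (-0.98 to 0.082), TK1 (-0.46 to 0.098), RRM2 (-0.11 to 0.33), CHAF1B (-0.045 to 0.25) and LIG1 (-0.28 to 0.18). The ranges of the others were -0.073 to 0.018 for CDK6, -0.21 to 0.78 for CCND2, -0.0084 to 0.11 for GINS3 and -0.013 to 0.23 for CDC45. The alternatives for TFDP2 and SUPT16H were chosen after seeing the data.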
